A study of Capra hircus with 2 samples.

Results

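MicroRNA (miRNA) tables of goat testicular cells hold entries that carry the name of a miRNA although the hairpin they were named after, one of another species, was not placed on the goat genome. These named entries outside the class of known hairpins are described here. Members were the named entries that the authors put in their classes gp2a, gp2b and gp3, without 11 names that were left out by rule. They came to 1583 entries for CD49f-positive cells and 1415 for CD49f-negative cells, which is 2998 of 4476 named entries in all. They fell under 1375 of 1808 names, where a name joins all entries of 1 miRNA arm whatever their source species.

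A miRNA is cut from a hairpin precursor as a strand of about the length of a small interfering RNA, and it finds its messenger RNA targets mainly through its seed, bases 2 to 8. A hairpin known in another mammal may be missing from a genome assembly, may lie there in a changed form, or may share a short stretch with unrelated RNA. The authors' classes keep such cases apart, per the column description deposited with the tables. In gp2a and gp2b the hairpin of another species was not placed on the goat genome but the reads were, and the sequence around them may form a hairpin in gp2a and may not in gp2b. In gp3 the hairpin was not placed on the genome either, and the reads were unplaced (gp3a) or placed (gp3b).

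Both groups were cells of Saanen dairy goats aged 5 months, from 3 goats, freed enzymatically, plated overnight, and collected unattached before magnetic sorting. CD49f, the integrin alpha-6 chain, is carried on the cell surface and serves as a handle to enrich spermatogonial stem cells. The 2 groups are the cells with it (CD49f-positive) and without it (CD49f-negative). With 1 library on each side, differences between the groups could not be checked against replicates and carry no p-value. Whether the goats were pooled is not stated. The libraries held 8196507 and 3064462 reads in named entries, so the positive one was 2.67 times deeper. Fewer cells of a type and less RNA per cell cannot be told apart in such sorted bulk samples.

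The largest class was gp3, with 1149 entries in the positive and 1021 in the negative library. gp2b had 375 and 356 entries, and gp2a 59 and 38. Together they took 60350 reads, or 0.736% of the positive library (exact Clopper-Pearson 95% interval 0.730 to 0.742), and 35322.5 reads, or 1.15% of the negative one (1.14 to 1.16). The intervals account for counting error alone: amplified reads that carry no molecular identifier cannot be counted as separate molecules. Fractions of a read arise because the authors split a read among the entries it fits.

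The sequences differ in kind between the classes. In gp2a several lay on top of a known goat hairpin and departed from it by 1 base. The pair of examples below, chosen because they were the gp2a entries with most reads at such a place, give the listed read and the goat hairpin at the same site, with the differing base in capitals.
bta-miR-152 read: tcagtgcatGacagaact
goat miR-148b hairpin site: tcagtgcatCacagaact
mdo-miR-22 read: aagctgccagttgaagaactgC
goat miR-22 hairpin site: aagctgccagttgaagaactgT
The first lies at chr5:25002475-25002733 on the minus strand, around the known miR-148b hairpin at chr5:25002575-25002683, and differs by C10G (the hairpin's base, the position from the 5′ end of the read, the read's base). It had 433 reads in the positive and 115 in the negative library, beside 16376 and 9237.5 reads on the same arm of the known hairpin. The second lies at chr19:22130937-22131198 on the minus strand, around the miR-22 hairpin, and differs by T22C, its last base. It had 239 and 148 reads, beside 10237 and 3713 on that arm. The first read is also an exact piece of miR-152-3p, printed below, and the second equals the listed mdo miR-22-3p. The genome build is not given in the sources used here, and gene annotation at these positions was not used here.

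In gp3 the most abundant members carried the names of miRNAs of other mammals. For miR-152-3p and miR-185-5p the mature sequence of the other species, not a listed read, is shown here with the seed in capitals. Of their gp3 reads, 52.4% and 18.8% carried a mismatch in the positive library and 50.3% and 22.8% in the negative one.
miR-152-3p: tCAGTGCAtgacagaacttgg
miR-185-5p: tGGAGAGAaaggcagttcctga
miR-152 belongs to the miR-148 family, and its seed was also that of miR-148a-3p and miR-148b-3p at known goat hairpins. The seed of miR-185-5p was found at none of them. Of 63 member names with at least 100 reads summed over both libraries, 49 had a mature sequence in the tables. The seed of 20 of these was also that of a miRNA at a known goat hairpin. For some, such as miR-22-3p and miR-339b-5p, that miRNA was an entry of the same name. These seeds are of the other species' miRNA and can differ from those of the reads. For let-7j-5p that seed was at no known goat hairpin. Its entry of 373 positive-library reads lists a sequence found in the let-7i hairpin once 2 bases at the 3′ end came off.

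Other gp3 and gp2b sequences lay in a known goat hairpin only once 1 to 3 bases at the 3′ end came off. Whether such bases were added to the RNA or belong to another miRNA was not tested. In these lines the capitals mark the bases that must come off before the rest is found in the named goat hairpin.
miR-125a-5p (sha), in the miR-125b hairpin: tccctgagaccctaacttgtgaAA
miR-92-3p (ptr), in the miR-92a hairpin: tattgcacttgtcccggcctgtAA
miR-339b-5p (bta), in the miR-339b hairpin: tccctgtcctccaggagctcAC
Of these, the miR-125a sequence had 932 copies in the negative library, the miR-92 sequence 866 in the positive library, and the miR-339b sequence 660 in the positive and 743 in the negative library. The listed sequence is the read with the best mapping score and not the most frequent one. The positive library thus lists miR-125a-5p by a sequence with 1 copy, in gp3b, for an entry of 1124 reads.

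Some gp2b sequences were staggered pieces of 1 stretch. For miR-6243 and miR-1246, whose 3p arms had most gp2b reads, the capitals mark the part shared with the first line of each name.
miR-6243, most reads: gtgggattatgactgaacgcct
miR-6243, gp2a: atctGTGGGATTATGACT
miR-6243, gp3: TATGACTGAACGCCT
miR-1246, most reads: atggatttttggagcagg
miR-1246, longer: aATGGATTTTTGGAGCAGGgagt
miR-1246, shorter: TGGATTTTTGGAGCAGG
miR-6243 had 37 distinct listed sequences at 27 places on the genome, of 15 to 29 bases. miR-1246 had 23 at 24 places, of 15 to 24 bases. miR-5105 had 43 at 25 places. Overlapping pieces were listed in 3 classes for miR-6243. Other miR-6243-5p sequences in gp2b, with 454.5 reads in the positive and 456 in the negative library, shared 4 bases with the first line.

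gp3 was carried by a few names. miR-152-3p had 14768 reads in the positive and 6361 in the negative library in this class. miR-486-5p, known as abundant in red blood cells, had 10227 and 4862.4. These 2 names held 60.3% of the gp3 reads in the positive and 49.3% in the negative library. miR-185-5p followed with 2955 and 1083, miR-5115-5p with 1371 and 1681, miR-125a-5p with 1124 and 1068 and miR-92-3p with 988 and 501. miR-5115-5p was the only one of these 6 with more reads in the shallower library. The same miR-152 sequence, with 6892 copies in the positive library, was listed there for the cow and the gorilla hairpin, and its reads were split between the 2 entries. The negative library lists 1 main entry for it, under the gorilla name, with 6361 reads.

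gp2b was led by the staggered names. miR-6243-3p had 3023 and 2413 reads, miR-1246-3p 2142.5 and 1338, miR-5105-5p 1839 and 1537.5, and miR-339b-5p 1038 and 1117. miR-5105-3p had 1321 and 697.5 and miR-6243-5p 954 and 786. The names of both arms of miR-6243 and miR-5105, with miR-1246-3p, held 61.5% of the gp2b reads in the positive and 63.4% in the negative library. Only miR-339b-5p of these 6 had more reads in the negative library. The arm labels did not keep sequences apart. Pieces named miR-6243-5p overlapped the miR-6243-3p sequence, and a miR-5105 sequence was listed under both arms.

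In gp2a, miR-2284y-5p, of a miRNA family that is large in cattle, had 1427.5 reads in the positive and 1040 in the negative library, or 37.4% and 55.1% of the class. miR-6243-5p had 959 and 358 and miR-199c-3p 67 and 53. miR-2285n-3p had 199 reads in the positive and 0 in the negative library, which allows up to 3 reads there. Against that floor its share in this class was at least 24.8-fold higher, taking the 199 reads as exact, and the exact interval of the log2 ratio starts at 4.32. All of the 199 reads carried a mismatch. Its entries in the other classes held 63 and 59.5 reads, so the absence was of the class and not of the name. Over all member classes its log2 ratio was 0.71 (0.30 to 1.14) by the total of named reads. With the TMM scalings described below it was 1.15 and 1.53. No member name with at least 100 reads in 1 library was at 0 in the other.

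The share of mismatches was highest in gp3 within each library, but the classes have no common reference. Mismatches of listed sequences were placed against the other species' hairpin in gp3. In gp2 and at known hairpins they were placed against goat genomic sequence. In gp3, 58.2% of reads in the positive library (interval 57.7 to 58.6) and 64.4% in the negative library (63.8 to 65.1) carried a mismatch. The share was 24.0% and 35.1% in gp2b, and 39.4% and 34.0% in gp2a, beside 32.4% and 35.5% at known hairpins. Counted by entries, the listed sequence itself had a mismatch in 90.2% and 92.8% of gp3, 48.5% and 55.6% of gp2b, 55.9% and 57.9% of gp2a, and 27.3% and 28.2% of entries at known hairpins. Within gp3 the abundant entries had the smaller share: those over 100 reads had 55.9% mismatched reads in the positive library, and those with at most 1 read 95.6%. The small gp3b had 91.4% and 98.6% mismatched reads, and gp3a 56.8% and 63.2%.

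**Figure D1:**
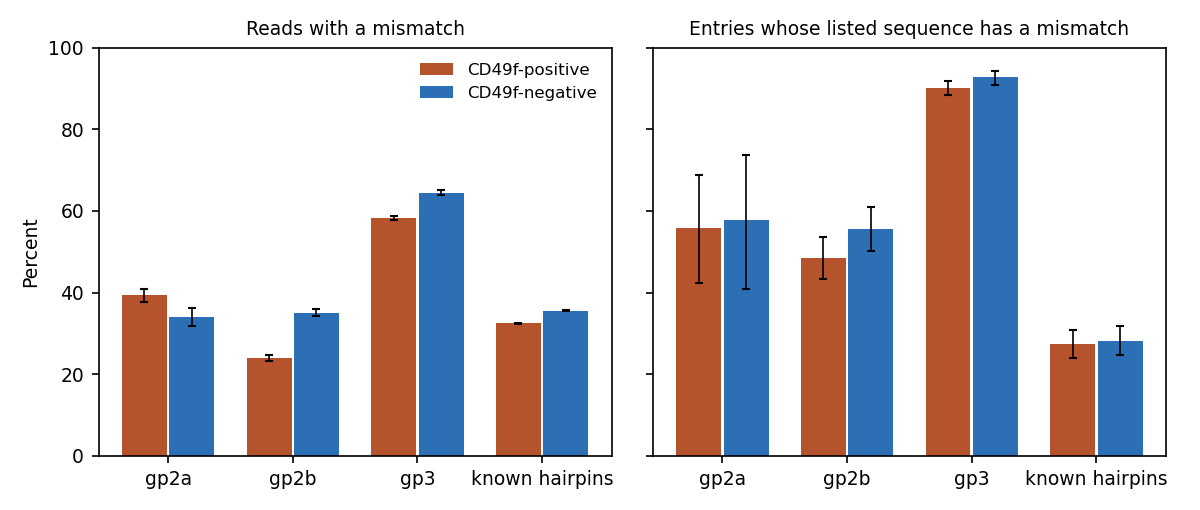
Percent of reads with a mismatch (left) and percent of entries whose listed sequence has a mismatch (right), by class, for the CD49f-positive and CD49f-negative libraries; bars are shares of 1 library and lines are exact 95% binomial intervals, which on the right treat entries as independent. gp3 is highest in both panels, with 58.2% and 64.4% of reads and 90.2% and 92.8% of entries. The reference differs by class: the other species' hairpin in gp3, goat genomic sequence elsewhere.

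The place of the mismatch differed too, again against unlike references. Among listed sequences with 1 mismatch, it was the last base in 16 of 33 placed gp2a entries of the positive library (48.5%), in 42 of 182 gp2b entries (23.1%) and in 61 of 951 gp3 entries (6.41%), beside 54 of 180 at known hairpins (30.0%). It lay more than 3 bases from the 3′ end in 743 gp3 entries, or 78.1%. The negative library had the last base in 10 of 22, 30 of 198 and 88 of 875 entries. The order holds by entry and not by reads: weighted by their reads, entries with the mismatch at the last base made up 56.1% in gp2a, 16.9% in gp2b, 54.1% in gp3 and 46.6% at known hairpins in the positive library, and 62.7%, 11.0%, 43.5% and 0.52% in the negative one.

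Known goat hairpins lay under 19 of 59 gp2a entries in the positive library (32.2%) and 12 of 38 in the negative one (31.6%), on the same strand. For gp2b these were 28 of 375 (7.47%) and 22 of 356 (6.18%). Of the reads of these gp2a entries, 4 of 1007 had no mismatch in the positive library and 0 of 419 in the negative library. In gp2b, 397 of 857.5 and 312 of 573.5 had none. Reads that fit a known hairpin without a mismatch may be listed there instead, so these counts are not independent of the classes. Besides the examples above, reads named let-7e-5p lay at the let-7f hairpin with T16A, and miR-151b-5p at the miR-151 hairpin with T21A. No listed member sequence was identical to one listed at a known hairpin in the same library. One contained the other for 11 of 59 gp2a entries, 38 of 375 gp2b entries and 46 of 1149 gp3 entries in the positive library, and for 4 of 38, 29 of 356 and 52 of 1021 in the negative one.

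Length separated the classes further. The median listed length was 21 bases in gp2a, 20 in gp2b and 16 in gp3 in both libraries, beside 22 at known hairpins. Sequences of at most 17 bases made up 74.7% of gp3 entries in the positive and 70.6% in the negative library, and sequences of 15 bases alone 47.9% and 43.5%. In gp2b at most 17 bases were listed for 21.9% and 14.6% of entries, and in gp2a for 2 of 59 and 0 of 38, beside 9.82% and 9.34% at known hairpins. In gp3, entries with at most 1 read had a median length of 15 bases in the positive library, those over 10 up to 100 reads 18 and those over 100 reads 21. gp2b went the other way, with a median of 20 bases at most 1 read and 18.5 over 100 reads.

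**Figure D2:**
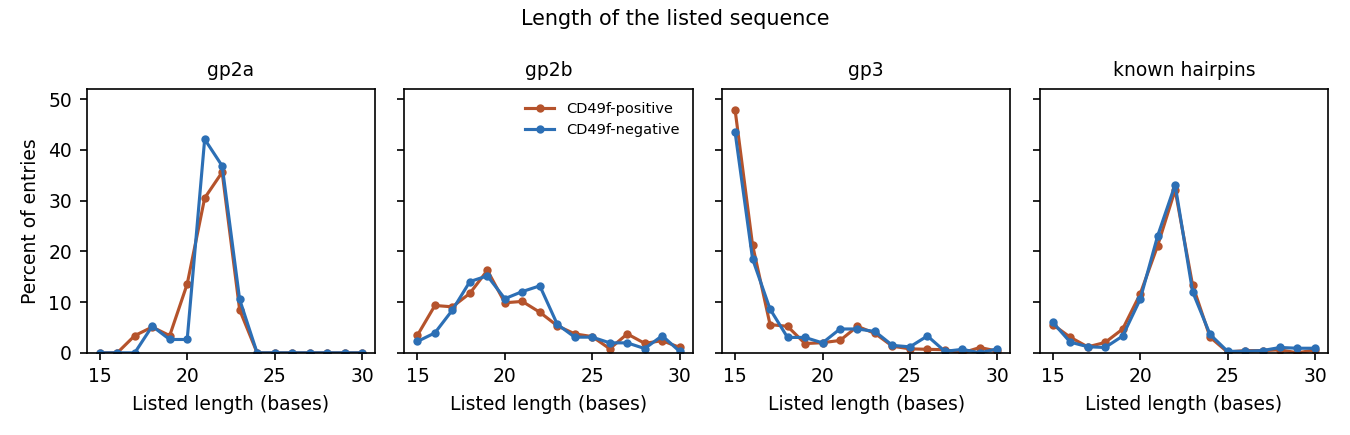
Percent of entries (vertical) by length of the listed sequence in bases (horizontal, 15 to 30), for gp2a, gp2b, gp3 and known hairpins, with 1 line per library. gp3 peaks at 15 bases with 47.9% and 43.5% of entries, while gp2a and the known hairpins peak at 21 or 22 bases.

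Low read numbers went with gp3. At most 1 read was assigned to 65.2% of its entries in the positive and 64.1% in the negative library, against 18.7% and 18.3% in gp2b, 11.9% and 7.89% in gp2a, and 16.7% and 15.8% at known hairpins. The 10 entries with most reads held 79.2% and 74.5% of gp3 reads, 46.6% and 50.5% of gp2b reads and 88.6% and 93.5% of gp2a reads.

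The CG% column describes another sequence in each class. In gp2 it equalled the CG content of the listed genomic sequence for 912 of 912 entries, and in gp3, where no genome position is listed, that of the other species' hairpin for 2173 of 2212 entries, both within 0.11 percentage points and with the names left out by rule included. Its median was 40.7% and 40.9% in gp2a, 48.8% and 48.9% in gp2b and 50.9% and 50% in gp3, beside 47.7% and 47.8% at known hairpins. The quartiles of gp2b (42.2% to 56.7% in the positive library) and gp3 (43.6% to 58.0%) overlapped for most of their range, while those of gp2a were lower (37.2% to 48.3%).

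The source species followed the class. Cow (bta) supplied 64.4% of gp2a entries in the positive and 68.4% in the negative library, close to its 63.2% and 62.8% of entries at known hairpins. gp2b was split between mouse (mmu), with 33.9% and 33.4%, and cow, with 30.1% and 34.3%. Human (hsa) led gp3 with 26.2% and 26.9%, ahead of mouse with 18.2% and 17.4% and cow with 10.9% and 11.0%. By reads the order in gp3 was another, since human entries held 4.18% and 6.32% and cow entries 29.8% and 10.7%. The cow share there moved with the miR-152 reads, which the positive library lists partly under a cow name. The median number of species listed for an entry was 1 in each member class, against 7 at known hairpins. Among entries over 100 reads it was 3 and 2 in gp3, 2 and 2 in gp2b, 1 and 1 in gp2a and 8 and 8 at known hairpins.

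The letters CCA, which also end mature transfer RNAs, stood at the 3′ end of 30 of 1149 gp3 sequences and 9 of 375 gp2b sequences in the positive library, and of 29 of 1021 and 14 of 356 in the negative one. No gp2a sequence ended so, and 7 of 682 and 3 of 664 at known hairpins did. Entries that list such a sequence held 8.58% of gp2b and 2.24% of gp3 reads in the positive library and 2.70% and 2.41% in the negative one. Not all reads of such an entry need end so. The gp3 entry of miR-2478-3p had 458 reads in the positive library and 203 copies of its listed sequence. In the positive library the reads of these entries were mostly of miR-2478-3p and miR-3968-3p. The motif and both names were chosen after the values were seen, and the origin of these reads was not tested.

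Presence in both libraries depended on reads. Of gp3 names 455 of 1321 (34.4%) were listed in gp3 in both, against 95 of 191 gp2b names (49.7%), 22 of 42 gp2a names (52.4%) and 516 of 665 names at known hairpins (77.6%). With at most 2 summed reads, which was so for 929 gp3 names, 12.2% of gp3 names and 15.2% of those at known hairpins were in both. With at least 10 reads the share was 157 of 160 in gp3, 67 of 76 in gp2b and 18 of 22 in gp2a, beside 413 of 414 at known hairpins. Of those listed in the class in 1 library only, 2 of 3 in gp3, 7 of 9 in gp2b and 3 of 4 in gp2a had an entry of another class in the other library.

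**Figure D3:**
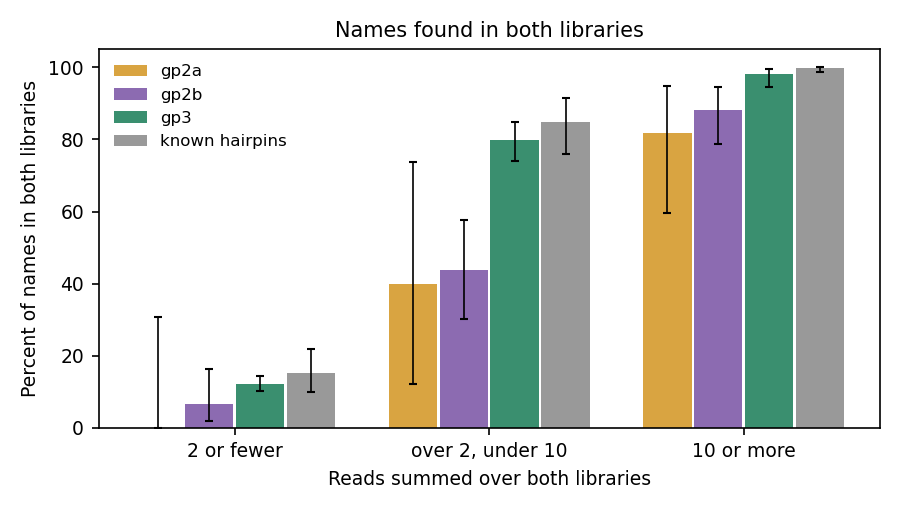
Percent of names listed in the same class in both libraries (vertical), in 3 bins of reads summed over both libraries (horizontal), for gp2a, gp2b, gp3 and known hairpins; lines are exact 95% binomial intervals that treat names as independent. With 10 reads or more, 98.1% of gp3 names and 81.8% of gp2a names were in both.

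Some names changed class between the libraries. Of gp2a names listed in the class in 1 library only, 16 of 20 were listed under another class in the other library, as were 63 of 96 in gp2b. In gp3 this was so for 144 of 866, and the other 722 were not listed in the other library. Among 199 member names with at least 10 summed reads and an entry in both libraries, the class with most reads differed for 22. A difference between libraries in 1 class can therefore be a difference in how the name was listed, and names were compared over all member classes together.

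Share ratios compare the read shares of the libraries, CD49f-positive over CD49f-negative. Scaled by the total of named reads, the log2 ratio was -0.41 for gp2a (interval -0.49 to -0.32), -0.92 for gp2b (-0.96 to -0.89) and -0.55 for gp3 (-0.58 to -0.53), beside 0.01 at known hairpins. These directions depend on the scaling. TMM, a scaling by a trimmed mean of ratios, raised every log2 ratio by 0.82 when computed over all names, which gave 0.42, -0.10 and 0.27. The shift fell to 0.44 over names with at least 10 reads, which gave 0.040, -0.48 and -0.11. gp2b alone was below 0 under all of the 5 TMM settings tried. The gp2a value also turned without miR-2284y-5p, to 0.073.

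Of the 63 member names with at least 100 summed reads, 20 (31.7%) were at least 2-fold lower in the CD49f-positive library with an interval excluding 1, and 3 (4.76%) at least 2-fold higher. Over all 298 names of that depth 24.8% were lower and 2.01% higher, so the members' shares were near those of all names. The median log2 ratio was -0.73 over the members and -0.43 over all names. With TMM over all names 1 member was lower and 7 were higher, where 5.03% and 16.4% of all names were. With TMM over names of at least 10 reads 9 were lower and 4 higher, where 13.4% and 9.06% of all names were. Whether more members were lower or higher thus turned with the scaling.

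**Figure D4:**
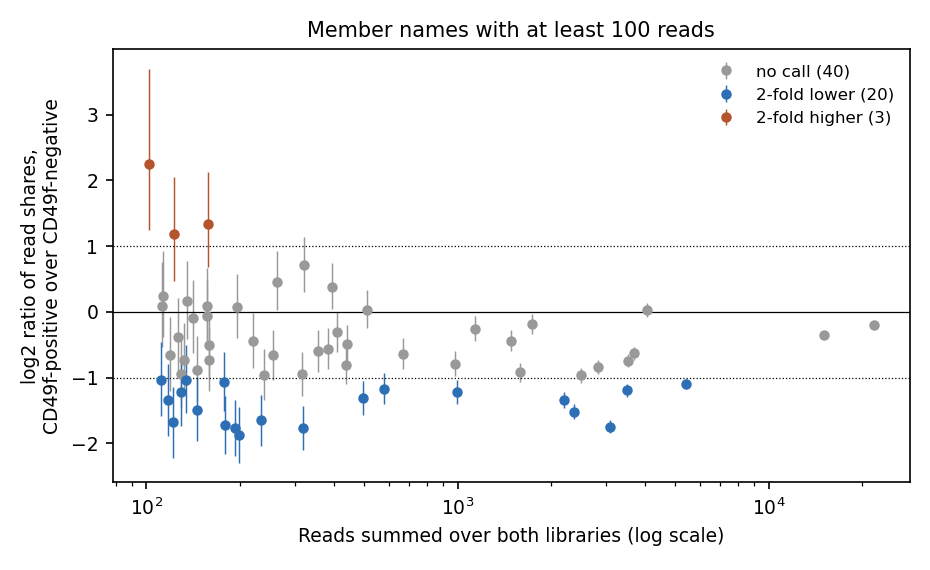
log2 ratio of read shares, CD49f-positive over CD49f-negative (vertical), against reads summed over both libraries (horizontal, log scale) for the 63 member names with at least 100 reads; lines are exact 95% intervals for counting error, dotted lines mark 2-fold. The 3 higher names all have few reads, and the most abundant names lie near 0 or below it.

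The 3 most abundant names of gp3 did not meet the 2-fold rule. miR-152-3p, with 15231 reads in the positive and 6511 in the negative library over all member classes, had a log2 ratio of -0.19 (interval -0.24 to -0.15). miR-486-5p was at -0.35 (-0.40 to -0.30). miR-185-5p, with 2980 and 1093 reads, was at 0.03 (-0.07 to 0.13). None of the 3 reached 2-fold under either TMM scaling.

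Among the lower names, 9 kept the call with TMM over names of at least 10 reads. miR-6087-5p, with 84 and 115 reads, had the lowest log2 ratio, -1.87 (-2.30 to -1.45), and was the only one still called with TMM over all names, at -1.05. Of its reads 10 and 4 had no mismatch, and these gave -0.20 (-1.89 to 2.03). miR-6087-3p, with 140 and 178 reads, was at -1.76, and at -0.81 (-1.97 to 0.45) from the 17 and 11 reads without a mismatch. miR-5115-5p, with 1371 and 1720 reads, was at -1.75 (-1.85 to -1.64), and at -1.40 (-1.92 to -0.88) from the 65 and 64 reads without a mismatch.

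Both arms of miR-132, known for its induction in active neurons, were low together. miR-132-5p was at -1.65 (-2.04 to -1.27), from 107 and 126 reads. For miR-132-3p, 55.3 and 66 reads gave -1.67 (-2.23 to -1.14). Neither name occurred at a known goat hairpin in these tables. The others of the 9 were miR-5097-3p (-1.76), miR-3676-5p (-1.73), miR-339b-5p (-1.52) and miR-95-5p (-1.49). miR-4335-5p (-1.35), miR-125a-5p (-1.34) and miR-2411-3p (-1.31) were lower by the read total and not by either TMM scaling. For miR-125a-5p the member entries held 6.33% of the reads of the name, and all its reads, known hairpins included, gave -0.03 (-0.07 to 0.00). The main member sequence lay in the miR-125b hairpin, so that total is mostly of reads from elsewhere.

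The 3 higher names were called under all 3 scalings and each also had entries at known hairpins. For miR-574-3p, 95 and 7 reads gave a log2 ratio of 2.25 (1.24 to 3.70). That call rests on how an arm was assigned. Of the 95 reads, 82 were of the cow entry miR-574, which has no arm in its name and lists the same sequence as miR-574-5p. Counted with that arm they left 13 and 7 reads for miR-574-3p, too few for the rule, and gave miR-574-5p 164 and 50.5 reads and 0.27 (-0.17 to 0.78). Over all reads named miR-574-3p, known hairpins included, the direction turned, to -0.47 (-0.71 to -0.23). For miR-450a-3p, 138 and 20 reads gave 1.33 (0.68 to 2.12), and none of its reads matched without a mismatch. The entry with 137 of its positive-library reads lists a sequence found in the known miR-450b hairpin once 2 bases at the 3′ end came off. let-7e-5p, of the let-7 family known for its rise with differentiation, was at 1.19 (0.47 to 2.05) from 106 and 17 reads, and with 5 reads added to each count its log2 ratio of 0.92 missed the rule. With reads without a mismatch only, none of the 33 member names with enough reads for the rule was called higher. The 3 higher names were not among these 33, so this setting could not test their calls. miR-574-3p had 66 and 1 such reads, with a log2 ratio of 4.05 (2.10 to 9.95). let-7e-5p had 16 and 2, with 1.30 (-0.51 to 4.74). Member entries held 15.6% of all reads named miR-574-3p and 2.71% of those named let-7e-5p, and all let-7e-5p reads gave 0.42 (0.31 to 0.52), which is under 2-fold.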

How the data were processed

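Small RNA was sequenced from 1 CD49f-positive and 1 CD49f-negative sample, each placed by its label. Per the labels, the Illumina TruSeq small RNA kit was used. Aligner, genome build and miRBase release: not given in the sources used here. The deposited reads per entry are expected counts, split among the entries a read fits; copies of a listed sequence are whole read counts and CG content is given in percent, per the deposited column description. Reads were summed by name and arm, with 1 arm per miRNA for entries without one in their name; ratios of shares of named reads had 0.5 reads added to each count (none for whole classes) and exact conditional (Clopper-Pearson) 95% intervals of rounded counts. A call needed 100 summed reads, 2-fold and an interval excluding 1. TMM factors came from edgeR 4.0.16 (R 4.3.3). TMM over all names was planned; minimums of 10, 20, 50 and 100 reads were tried after its shift of 0.82 had been seen, and gave 0.44, 0.42, 0.40 and 0.34. Other steps used matplotlib 3.10.9, SciPy 1.17.1, numpy 2.4.6, pandas 2.3.3 and Python 3.11.15. Named were the 6 names with most reads of each class, up to 12 called names per direction, and names with 100 reads in 1 library and 0 in the other. Members and lists were chosen with earlier results of these data known.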

Additional observations from a re-analysis of the deposited data

Results flagged for a closer look

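The names left out of the members by rule lay outside the comparisons above and carried a signal in both libraries. Their 63 entries in gp2 and gp3 held 22948 reads in the CD49f-positive library, and their 63 entries in the CD49f-negative library held 12945.5 reads. Of these reads 86.6% and 87.5% had a mismatch.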

How the results depend on the processing

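No paired analysis was possible because each group had 1 library. The counts of 20 lower and 3 higher of 63 member names became 1 and 7 with TMM over all names. They were 9 and 4 with TMM over names of at least 10 reads, chosen after seeing the data. TMM minimums of 20, 50 and 100, also chosen so, gave 9, 9 and 10 lower and 4 higher each. Of all 298 names these minimums gave 42, 42 and 49 lower and 24, 22 and 17 higher. A call minimum of 50 reads gave 33 and 3 of 91 names, and a minimum of 10 gave 67 and 6 of 204. A 4-fold rule gave 0 and 1 of 63, and 5 reads added gave 20 and 2 of 63. Reads without a mismatch gave 7 and 0 of 33, and names with no known hairpin entry 14 and 0 of 45. None of the 3 higher names had enough reads without a mismatch to be among the 33. The arm taken from the sequence gave 20 and 2 of 62 (chosen after seeing the data, with 11 of 674 entries without an arm changed). Shares over all names were taken for the TMM settings only. The name still higher by 4-fold was miR-574-3p, whose call ended with the arm taken from the sequence. The log2 class ratios of gp2a, gp2b and gp3 were 0.42, -0.10 and 0.27 with TMM over all names, and 0.040, -0.48 and -0.11 with TMM over names of at least 10 reads. They were -0.53, -0.69 and -0.32 for reads without a mismatch, and 0.073, -0.87 and -0.72 without the most abundant name. With the left-out names kept, gp2b was at -0.75 and gp3 at -0.60. The share of reads with a mismatch, positive then negative library, was without the most abundant name 53.5% and 52.4% in gp2a, 27.9% and 40.6% in gp2b and 61.4% and 69.9% in gp3, and with the left-out names 42.9% and 47.3% in gp2b and 66.5% and 71.4% in gp3. Names in both libraries rose to 81.8%, 88.2% and 98.1% with at least 10 reads. An ungapped match to a known hairpin, chosen after seeing the data, covered 47.5% and 47.4% of gp2a, 18.7% and 17.1% of gp2b and 5.92% of positive gp3 entries. It allowed 1 mismatch, or 1 to 3 bases off the 3′ end for sequences of at least 18 bases. The second way was closed to 74.7% of positive gp3 entries and 3.39% of positive gp2a entries, so these shares do not compare like with like. The causes of these changes were not tested. Depth limits the names with few reads, and no setting replaces a second library.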
